A study of Mus musculus with 6 samples.

Results

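Potassium channel subunit genes were examined in mouse femoral arteries 3 days after wire injury. Genes were selected on symbol and abundance: a symbol of the form Kcn followed by letters and a number, and a mean estimated count of at least 20 over the 6 libraries. Of 18476 genes in the deposited table, 88 had such a symbol and 40 of these reached the count. The mean used both groups and not their difference. All arteries came from wild-type C57BL/6 mice and all had been wire-injured. Arteries of 3 mice received saline around the vessel and those of 3 mice received vasostatin-2, a peptide fragment of chromogranin A. All 6 libraries carry the same batch label, and an uninjured artery was not analysed here.

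Potassium channels let potassium leave the cell and so hold the membrane potential of arterial smooth muscle negative, which limits calcium entry through voltage-gated calcium channels and favours relaxation. The BK channel opens on calcium and depolarization, Kv channels on depolarization, and KATP channels when ATP is low. Kir and K2P channels set the resting potential. Smooth muscle that leaves the contractile state is known to lose BK current and gain the intermediate-conductance channel encoded by Kcnn4, which macrophages and T cells also use.

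The labels name vascular smooth muscle cells, but the protocol describes RNA of the whole injured artery. Acta2 (smooth muscle actin) was at 753 TPM on average and Myh11 (smooth muscle myosin) at 68.5 TPM. In CPM (counts scaled to a common library total), 19 contractile smooth muscle genes summed to at least 1567. The 12 macrophage and 10 endothelial genes summed to at least 7550 and 2216 CPM. These sums cover different genes and are not shares of cells. In such bulk RNA, fewer cells of a type and less RNA per cell cannot be told apart. Library totals ran from 19333730 to 20105995 estimated counts, so 3 counts correspond to 0.149 to 0.155 CPM. Saline replicate 3 stood apart in 14 tested Schwann cell and nerve genes (984 summed CPM, against 216 to 325 elsewhere). Vasostatin-2 replicate 3 stood apart in 20 skeletal muscle genes (1555 against 149 to 224), and saline replicate 2 in erythroid genes (12411 against 327 to 2528).

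No channel gene passed an adjusted p of 0.05 in edgeR's quasi-likelihood test. That call covered 0 of 40 channel genes and 0% of the 14557 genes tested, and the lowest adjusted p was 0.601 among channel genes and 0.198 over all genes. With DESeq2, 0.776% of all genes and 0 channel genes passed. At an unadjusted p under 0.05 there were 6 of 40 channel genes (15%), against 7.14% of all genes. Of these, 3 were higher with vasostatin-2 (3.29% of all genes were) and 3 were lower (3.85%). Groups did not overlap in CPM for 3 channel genes that were higher (7.5%, against 6.07% of all genes) and 3 that were lower (7.5%, against 6.72%). The median log2 fold change was 0.01 over the channel genes and -0.00068 over all genes. The channel genes had 21 higher and 19 lower means. Values below are therefore levels and differences, none of which passed the adjusted test.

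**Figure D1:**
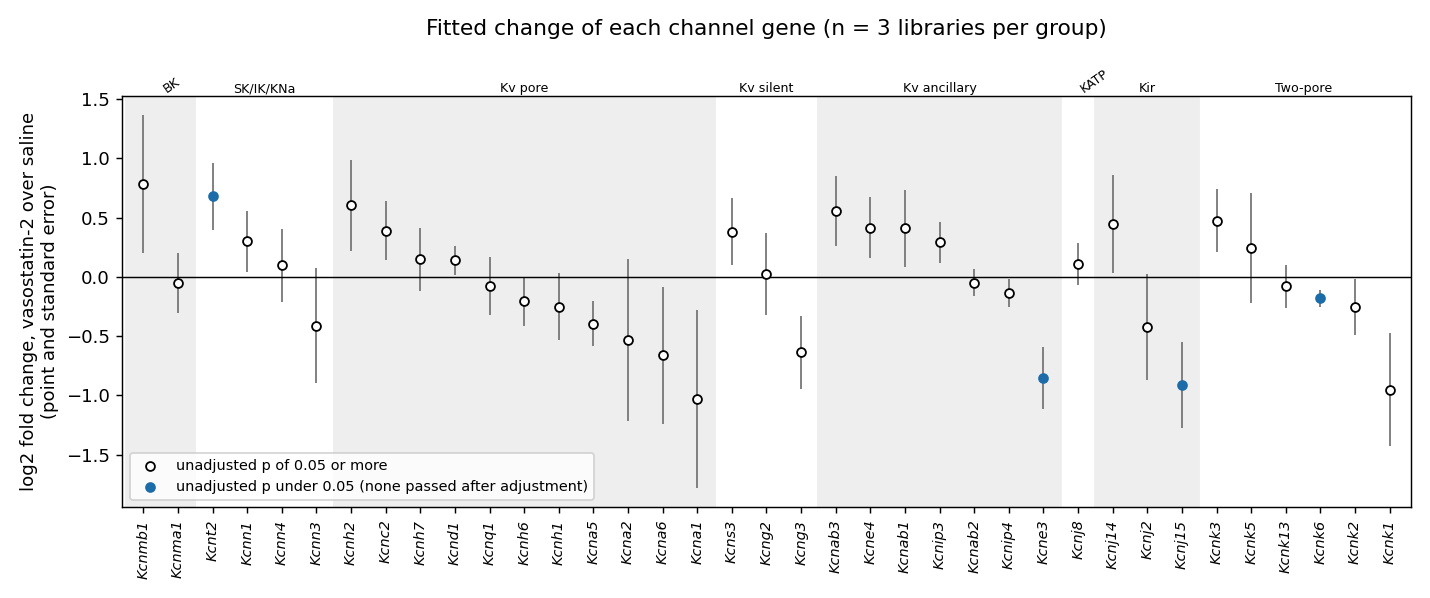
Fitted log2 fold change of 37 channel genes, vasostatin-2 over saline, with its standard error as a bar, grouped by channel class (Two-pore is the K2P class). Points run from -1.03 (Kcna1) to 0.78 (Kcnmb1), and filled points mark the 4 plotted genes with an unadjusted p under 0.05.

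On the TPM scale, which allows for gene length, 5 genes had a mean of at least 10 and together held 55.2% of the summed TPM of the 40. These were Kcnab2 at 34.1 ± 3.44 (SD, n = 6 libraries), Kcnn4 at 26.2 ± 7.15, Kcne4 at 23.2 ± 6.90, Kcnk6 at 20.8 ± 1.58 and Kcnj8 at 15.8 ± 2.51. The differences between neighbours from Kcnn4 to Kcnk6 were smaller than the SD of Kcnn4 or Kcne4. A further 26 genes lay from 1 to 10 TPM and 9 lay under 1. Summed over the 40, the libraries ran from 208 to 240 TPM. The genes just above the count threshold were Kcng2, Kcnn3 and Kcng3 (mean counts 22.2, 23.0 and 26.7), and those just below were Kcnd3, Kcnq5 and Kcna3 (19.8, 16.2 and 14). All 40 passed the low-count filter.

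**Figure D2:**
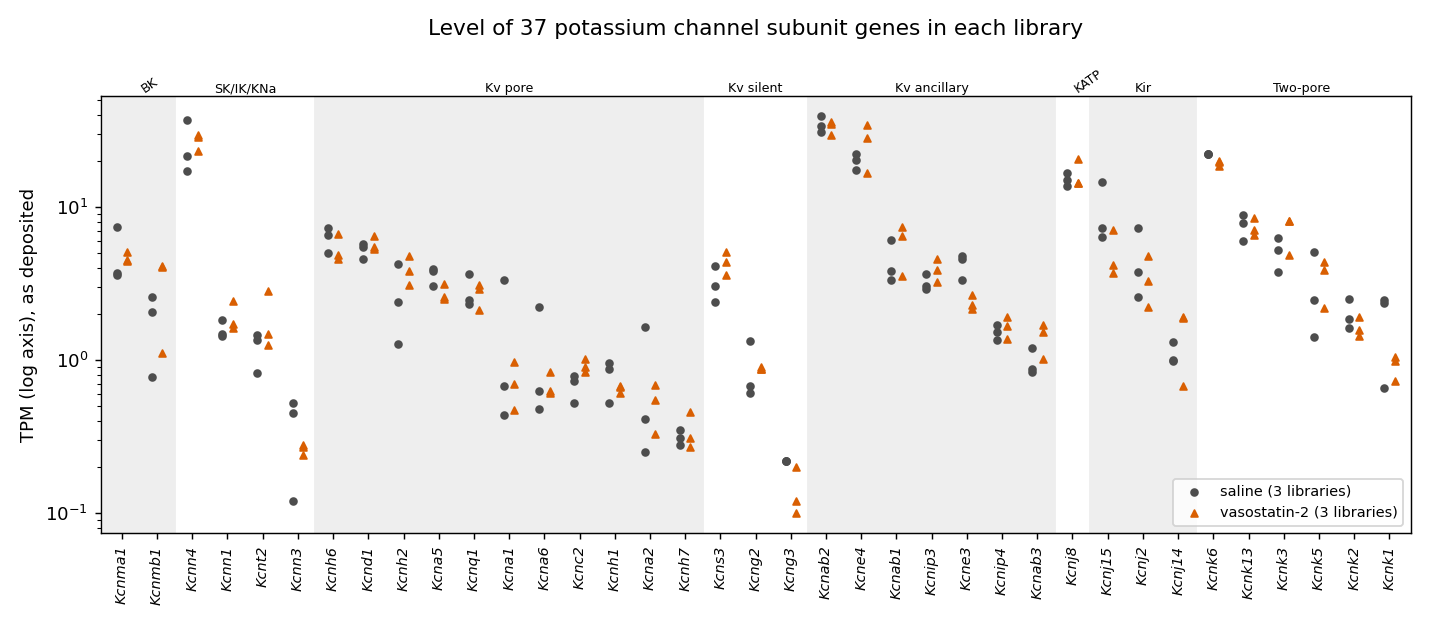
TPM of 37 channel genes in each library on a log axis, by class, with saline libraries as circles and vasostatin-2 libraries as triangles. Kcnab2 has the highest mean (34.1 TPM) and Kcng3 the lowest (0.18 TPM), and in most genes shown the groups overlap.

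The BK class held the pore subunit Kcnma1 and the beta subunit Kcnmb1, which raises the calcium sensitivity of the channel in smooth muscle. Kcnma1 was at 26.5, 14.7 and 13.8 CPM in saline replicates 1 to 3 against 18.1, 18.5 and 16.5 CPM in the corresponding vasostatin-2 libraries. The vasostatin-2 values lay inside the saline range, with a log2 fold change of -0.05 ± 0.25 (SE, n = 3 per group), which was 0.31 without saline replicate 1. Kcnmb1 was at 3.89, 1.55 and 4.98 CPM with saline and at 2.14, 7.96 and 7.86 CPM with vasostatin-2. Vasostatin-2 replicates 2 and 3 were above every saline library and replicate 1 was below saline replicates 1 and 3. Its log2 fold change of 0.78 ± 0.58 had an adjusted p of 0.817 in edgeR. Leaving out saline replicate 2 gave 0.43, and leaving out vasostatin-2 replicate 1 gave 1.19.

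The TPM ratio of Kcnmb1 to Kcnma1 was 0.279, 0.207 and 0.722 with saline, against 0.248, 0.807 and 0.916 with vasostatin-2. High ratios thus occurred in both groups. The summed level of 19 contractile smooth muscle genes was 2193, 1596 and 2733 CPM with saline and 1567, 3091 and 3200 CPM with vasostatin-2. The 3 libraries with the highest Kcnmb1 were also the 3 with the highest contractile sum. The part of smooth muscle content in the Kcnmb1 values was not tested. Kcnmb1 lies within Kcnip1 on the opposite strand, and Kcnip1 itself had 0 to 4 counts per library.

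**Figure D3:**
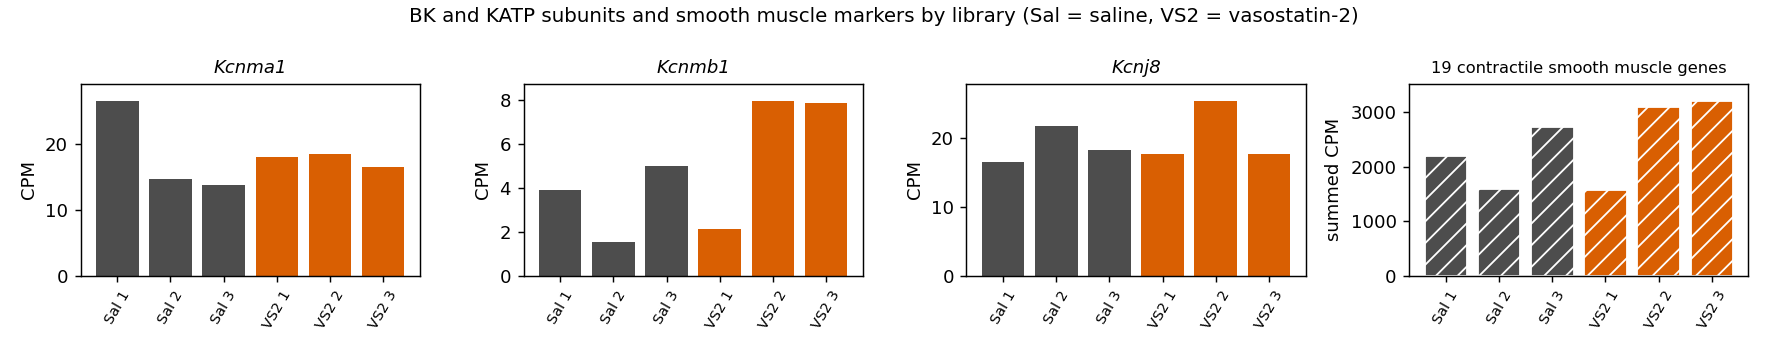
CPM of Kcnma1, Kcnmb1 and Kcnj8 in each library, with the summed CPM of 19 contractile smooth muscle genes in the last panel; every axis starts at 0. Kcnmb1 and the contractile sum are both highest in saline replicate 3 and vasostatin-2 replicates 2 and 3.

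The calcium- and sodium-activated class held 4 genes. Kcnn4, the intermediate-conductance channel, was at 19.96, 37.7 and 16.0 CPM with saline and at 22.3, 28.9 and 27.5 CPM with vasostatin-2. The 3 vasostatin-2 values lay inside the saline range. Its log2 fold change of 0.10 ± 0.31 was 0.54 without saline replicate 2 and -0.13 without saline replicate 3. Saline replicate 2, highest for Kcnn4, was also highest for the 12 macrophage genes (11640 summed CPM, against 7550 to 10533). That library was highest as well for T and NK cell genes (70.8, against 33.3 to 53.7) and for the erythroid, neutrophil and adipocyte lists. It was not highest for the endothelial, fibroblast, Schwann cell, smooth muscle or skeletal muscle lists. The part of any of these cell types in Kcnn4 was not tested. Kcnt2, a sodium-activated pore subunit, was at 3.94, 2.69 and 4.09 CPM with saline and at 4.85, 7.86 and 4.44 CPM with vasostatin-2. The groups did not overlap, and the replicates 3 of both groups were the closest pair. The log2 fold change was 0.68 ± 0.28 (unadjusted p = 0.0467, adjusted p = 0.693 in edgeR), and 0.38 without vasostatin-2 replicate 2. Kcnn1, a small-conductance channel, was at 1.99 to 2.79 CPM with saline and 2.35 to 3.52 CPM with vasostatin-2. Kcnn3, of the same family, had 32, 9 and 38 counts with saline and 18, 21 and 20 with vasostatin-2, inside the saline range. Its mean counts were 26.3 and 19.7, and it was the only gene with a group mean under 20.

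Of 14 Kv pore subunits, 7 had higher and 7 lower means with vasostatin-2, and the median log2 fold change was -0.04. Kcnh6, an ERG-type channel, was at 11.8, 13.8 and 9.02 CPM with saline and at 12.3, 9.16 and 8.52 CPM with vasostatin-2. Kcnd1, an A-type channel, was at 10.4, 8.94 and 9.92 CPM with saline and at 9.96, 10.2 and 12.0 CPM with vasostatin-2. Both overlapped between groups. Kcna5, the Kv1 pore best known from vascular smooth muscle, was at 4.35, 6.04 and 5.48 CPM with saline and at 4.596, 3.65 and 3.83 CPM with vasostatin-2. Of the saline libraries, replicate 1 alone lay within the vasostatin-2 range, and the log2 fold change was -0.39 ± 0.19 (adjusted p = 0.713 in edgeR). The groups also overlapped for the ERG channel Kcnh2, with a log2 fold change of 0.60 ± 0.39, and for Kcnc2 at 0.39 and Kcnh7 at 0.15. They overlapped as well for Kcnq1 at -0.07 and Kcnh1 at -0.25.

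Kcna1, Kcna2 and Kcna6 encode Kv1 pores known from myelinated axons, and were the 3 channel genes in which 1 library reached at least 2.5 times the median of the other 5. Kcna1 was at 1.87, 3.15 and 14.4 CPM with saline and at 2.09, 4.30 and 3.11 CPM with vasostatin-2. Kcna2 was at 1.41, 2.48 and 9.17 CPM with saline and at 1.89, 4.004 and 3.16 CPM with vasostatin-2. Kcna6 was at 1.72, 1.45 and 6.23 CPM with saline and at 1.84, 1.75 and 2.35 CPM with vasostatin-2. The deposited Kcna6 span ends at 126741601, as the antisense gene Gm26673 does, while Kcna6 in GENCODE ends at 126740674. The part of that antisense gene in these values was not tested. In all 3 genes the high library was saline replicate 3, the library with the high Schwann cell sum; the myelin gene Mbp was at 174 CPM there, against 33.7 to 43.9 elsewhere. Log2 fold changes were -1.03, -0.53 and -0.66 for Kcna1, Kcna2 and Kcna6, and 0.34, 0.64 and 0.32 without saline replicate 3. The direction therefore turned with that library. Kcna5 did not share the pattern. Saline replicate 3 was also highest for the endothelial list (2669 summed CPM, against 2216 to 2647), and for none of the remaining lists. The part of nerve, Schwann or endothelial cells in the Kcna1, Kcna2 and Kcna6 values was not tested.

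**Figure D4:**
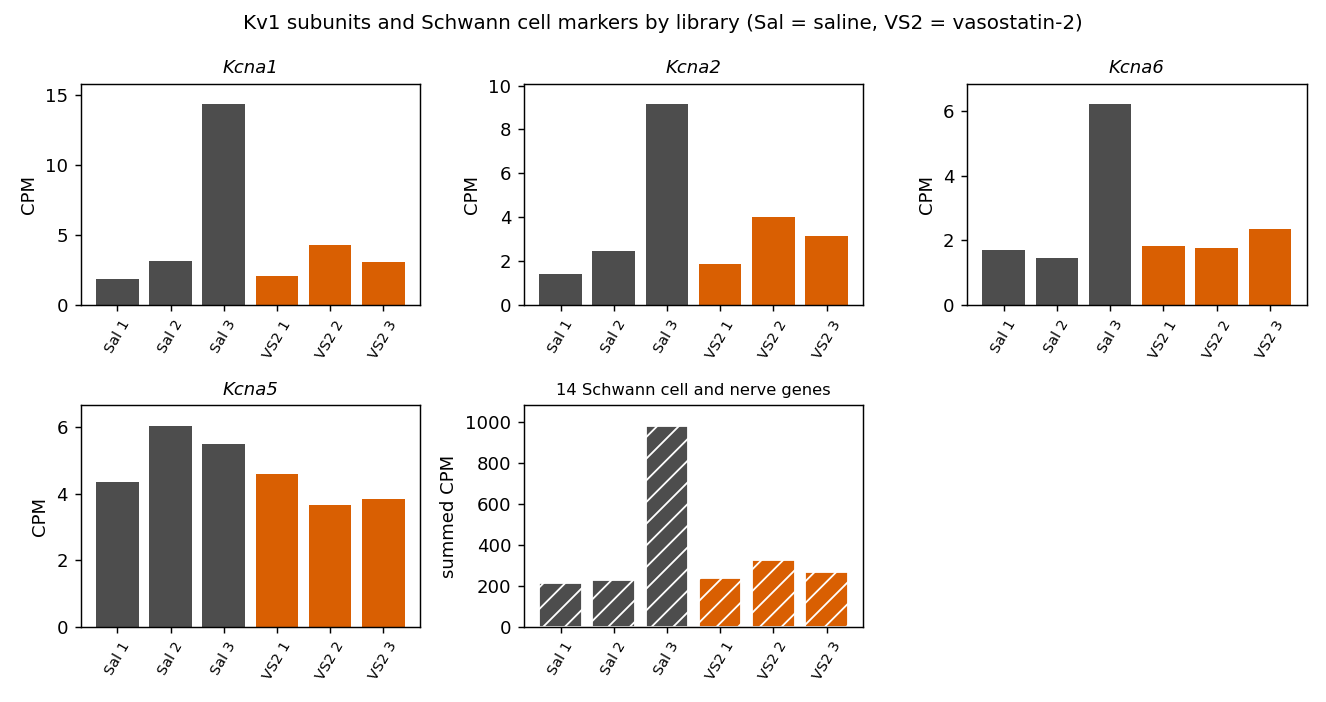
CPM of Kcna1, Kcna2, Kcna6 and Kcna5 in each library, with the summed CPM of 14 Schwann cell and nerve genes in the last panel; every axis starts at 0. Saline replicate 3 is highest for Kcna1 (14.4), Kcna2 (9.17), Kcna6 (6.23) and the nerve genes (984), but not for Kcna5.

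Kcna1, Kcna5 and Kcna6 are neighbours on chromosome 6 and Kcna2 lies on chromosome 3. The 150 bases before the RefSeq start (GRCm38.p6) are shown for Kcna2 and Kcna6, for their neighbour Kcna5 that lacked the pattern, and for Kcnmb1, with CG pairs in capitals.
Kcna2 (chr3:107101417-107101566, plus strand): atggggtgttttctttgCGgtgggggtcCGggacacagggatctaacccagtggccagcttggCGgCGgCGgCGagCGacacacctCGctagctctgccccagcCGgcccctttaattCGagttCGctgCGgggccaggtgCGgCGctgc
Kcna6 (chr6:126740675-126740824, minus strand): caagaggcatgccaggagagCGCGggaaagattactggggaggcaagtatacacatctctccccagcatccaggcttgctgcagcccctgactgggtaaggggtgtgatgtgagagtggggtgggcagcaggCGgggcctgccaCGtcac
Kcna5 (chr6:126535556-126535705, minus strand): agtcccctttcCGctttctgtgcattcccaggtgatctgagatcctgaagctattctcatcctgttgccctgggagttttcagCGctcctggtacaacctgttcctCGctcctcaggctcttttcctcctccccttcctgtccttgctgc
Kcnmb1 (chr11:33962863-33963012, plus strand): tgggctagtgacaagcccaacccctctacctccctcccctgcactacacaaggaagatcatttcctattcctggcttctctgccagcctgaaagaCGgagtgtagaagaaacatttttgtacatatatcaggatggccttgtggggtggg
These stretches held 14, 4, 3 and 1 CG pairs, and 67.3%, 62.0%, 54.7% and 50.7% G or C. The Kcna2 stretch lies downstream of the start of Kcna2 in GENCODE (107101146). The Kcna6 stretch lies inside the antisense gene Gm26673. RefSeq windows were matched for 29 channel genes (45 windows). In 35 of these, bases after the start matched the first part of a GENCODE transcript of the gene. Over the 250 bases before the start the median GC content of the 45 windows was 58.8%, against 52.4% over 32851 windows. Both strands were searched. The CArG box, the motif bound by serum response factor, was in 0 of 45 windows (1.47% of all windows), TATAAA in 0 (12.37%), ACAAAG in 7 (16.46%) and CACGTG in 5 (6.02%). A match or its lack describes these letters only.

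The silent Kv subunits, which form channels only together with other Kv pores, were Kcns3, Kcng2 and Kcng3. Kcns3 was at 2.58, 5.11 and 3.49 CPM with saline and at 5.16, 5.51 and 3.88 CPM with vasostatin-2. Kcng2 was at 0.827 to 1.67 CPM over the 6 libraries. Kcng3 was at 1.62, 1.76 and 1.59 CPM with saline and at 0.919, 1.502 and 0.765 CPM with vasostatin-2. Groups did not overlap for Kcng3, whose mean count of 26.7 is close to the threshold (adjusted p = 0.715 in edgeR).

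Among 7 ancillary Kv subunits, the beta subunit Kcnab2 was at 53.0, 62.6 and 66.7 CPM with saline and at 52.1, 61.1 and 63.2 CPM with vasostatin-2. Kcne4, a small membrane subunit that inhibits some Kv channels, was at 26.0, 26.0 and 20.7 CPM with saline and at 34.6, 42.0 and 20.3 CPM with vasostatin-2. Vasostatin-2 replicates 1 and 2 were above all saline libraries and replicate 3 was below them, with a log2 fold change of 0.41 ± 0.26. Leaving out vasostatin-2 replicate 2 gave 0.18, and leaving out replicate 3 of that group gave 0.66. Kcnab1, another beta subunit, overlapped between groups, at 5.46, 5.32 and 8.82 CPM with saline and 5.31, 11.1 and 9.59 CPM with vasostatin-2. Kcne3, a small subunit that holds KCNQ1 channels open, was at 2.37, 1.70 and 2.34 CPM with saline and at 1.23, 1.35 and 0.970 CPM with vasostatin-2. All saline libraries were above all vasostatin-2 libraries, with a log2 fold change of -0.85 ± 0.26 (unadjusted p = 0.0137, adjusted p = 0.605 in edgeR). The deposited Kcne3 span (chr7:100171962-100227207) is wider than Kcne3 in GENCODE (100176502-100184869) and ends where the antisense gene Gm34821 ends. The part of that antisense gene in these values was not tested. The beta subunit Kcnab3 and the calcium-binding subunits Kcnip3 and Kcnip4 overlapped between groups, with log2 fold changes of 0.56, 0.29 and -0.14.

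The KATP class was the pore subunit Kcnj8, which pairs with the sulphonylurea receptor Abcc9 in vascular muscle. Kcnj8 was at 16.5, 21.6 and 18.2 CPM with saline and at 17.6, 25.3 and 17.7 CPM with vasostatin-2, and Abcc9 had a log2 fold change of 0.09 ± 0.11. Both were highest in vasostatin-2 replicate 2. The log2 fold change of Kcnj8 was 0.11 ± 0.18, and -0.09 without that library. The other receptor, Abcc8, had 1 to 5 counts per library and was not tested.

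The Kir class held Kcnj15, Kcnj2 and Kcnj14. Kcnj15 was at 34.5, 18.4 and 14.999 CPM with saline and at 16.6, 9.31 and 10.2 CPM with vasostatin-2. The groups overlapped at 1 pair, since vasostatin-2 replicate 1 was above saline replicate 3. The log2 fold change was -0.91 ± 0.36 (unadjusted p = 0.0411, adjusted p = 0.684 in edgeR), and -0.48 without saline replicate 1. The deposited Kcnj15 span starts at 95183639, where the antisense gene Gm31641 starts, while Kcnj15 in GENCODE starts at 95257558. The part of that antisense gene in these values was not tested. The neutrophil list was also lower, with 8 of 8 tested genes at lower means. Its sums were 562, 572 and 350 CPM with saline against 427, 193 and 260 CPM with vasostatin-2. Lower means were not particular to that list, with 9 of 9 erythroid, 10 of 10 T and NK cell and 12 of 14 Schwann cell genes. Means were higher for 9 of 12 macrophage, 18 of 19 contractile and 20 of 20 skeletal muscle genes. The remaining lists went both ways. The part of any of these cell types in Kcnj15 was not tested. Kcnj2, the main strong inward rectifier of arterial muscle and endothelium, was at 9.75, 20.4 and 6.73 CPM with saline and at 12.7, 8.76 and 5.97 CPM with vasostatin-2. Its log2 fold change of -0.42 ± 0.45 was 0.15 without saline replicate 2. Kcnj14 was at 1.21, 1.34 and 1.64 CPM with saline and at 2.40, 2.45 and 0.867 CPM with vasostatin-2.

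Of the 6 K2P genes, which carry background current, Kcnk6 had the highest TPM. It was at 43.0, 46.4 and 43.0 CPM with saline and at 40.04, 37.0 and 39.6 CPM with vasostatin-2. The groups did not overlap, with a log2 fold change of -0.18 ± 0.07 (unadjusted p = 0.0329, adjusted p = 0.681 in edgeR). Kcnk13 was at 10.2, 16.2 and 13.8 CPM with saline and at 11.9, 11.9 and 14.1 CPM with vasostatin-2. Kcnk3, an acid-sensitive background channel, was at 6.72, 10.2 and 11.3 CPM with saline and at 9.09, 15.02 and 15.1 CPM with vasostatin-2, with a log2 fold change of 0.47 ± 0.26, which was 0.28 without saline replicate 1. Both overlapped between groups. So did the other K2P genes, with log2 fold changes of 0.25 for Kcnk5, -0.25 for Kcnk2 and -0.95 ± 0.48 for Kcnk1. Kcnk1 was at 2.68, 0.775 and 2.64 CPM with saline and at 0.868, 1.101 and 1.17 CPM with vasostatin-2, and saline replicate 2 was the lowest of all 6 libraries.

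**Figure D5:**
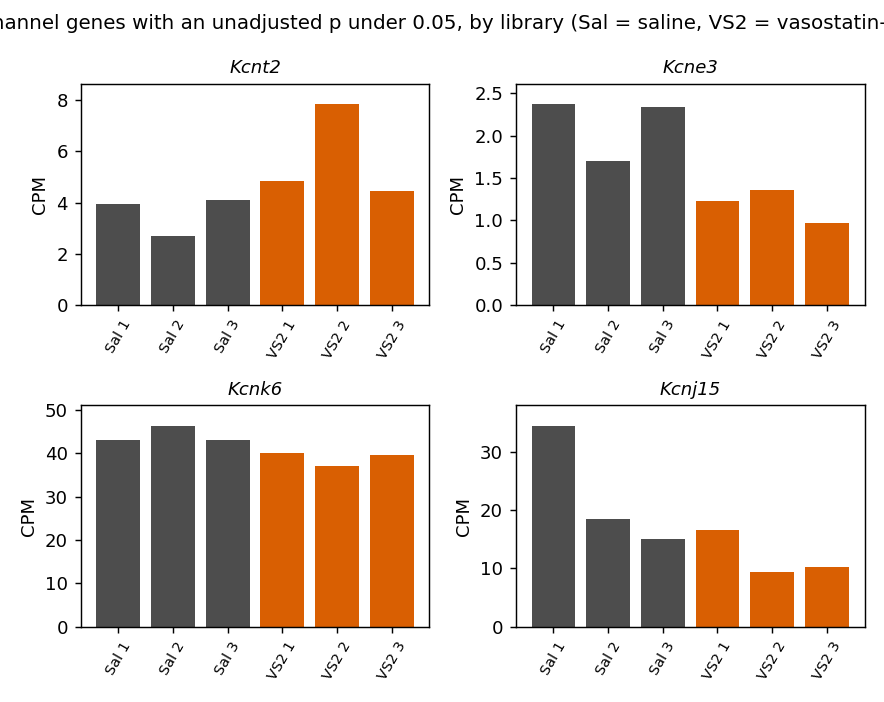
CPM in each library of 4 channel genes with an unadjusted p under 0.05; every axis starts at 0. In CPM, Kcnt2 is higher in every vasostatin-2 library, Kcne3 and Kcnk6 are lower, and Kcnj15 overlaps at 1 pair of libraries. In TPM the groups overlap for Kcnt2 too.

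Among 36 genes of channel partners and membrane potential regulators, 29 were tested, 14 with higher and 15 with lower means, and 0 passed the adjusted test. At an unadjusted p under 0.05 there were 2 of the 29 (6.9%), against 7.14% of all genes. Of these, Cav1, the caveolin that scaffolds channels in caveolae, was higher (log2 fold change 0.30 ± 0.11, adjusted p = 0.681 in edgeR). Lrrc55, an auxiliary gamma subunit of BK channels, was lower. It was at 4.04, 3.15 and 2.44 CPM with saline and at 1.69, 1.502 and 1.84 CPM with vasostatin-2, without overlap (log2 fold change -0.94 ± 0.25, adjusted p = 0.566 in edgeR). In the authors' deposited table, 98 genes had a q under 0.05 and 0 of these were channel genes, whose lowest q was 0.292.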

How the data were processed

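Poly(A)-selected RNA of 6 injured femoral arteries was sequenced on a BGISEQ instrument, per the labels' protocols. Alignment and testing tools listed in the submitters' processing notes are HISAT2 2.1.0 and DESeq2 1.26.0, with genome build GRCm38.p6. The counter and strandedness are not given in the sources used here. The deposited table holds estimated counts, of which 65.6% are whole numbers. The authors also deposited TPM, used here for levels between genes, and log2 fold changes with p-values and q-values. The 12 FPKM and average columns were not used.

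Estimated counts were rounded, filtered with filterByExpr (14557 genes) and scaled by TMM. They were tested with edgeR 4.0.16 (R 4.3.3, quasi-likelihood, robust, treatment only), with Benjamini-Hochberg adjustment over all genes tested. The SE of a log2 fold change was derived from this test, as the absolute log2 fold change over the square root of the F statistic. It therefore draws on dispersions moderated over all genes, and not on the 6 values of 1 gene alone. CPM uses TMM-scaled totals. DESeq2 1.42.0 left 584 adjusted p-values undefined. limma 3.58.1 was run on counts (voom with quality weights, which give libraries unequal influence) and on log2(TPM + 0.1). The code was tested on simulated data. Each group has 3 biological replicates, which limits precision. Alternatives covered scaling, filters, tests, the replicate block, single left-out libraries, both replicates 3 left out, and the threshold for channel genes.

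The channel genes and lists were chosen with earlier results of these data known. Named genes were 7 set by name, the 3 with the highest mean TPM in each class, those with an unadjusted p under 0.05, and those with 1 library at 2.5 times the median of the others. Some items these rules cover are not reported here. Deposited rows of 29 channel genes include noncoding RNA records, and the deposited strand of 13 differs from GENCODE M21, so GENCODE strands were used. In GENCODE, 25 channel genes overlap another gene, 5 of them a protein-coding gene, all on the opposite strand. With no strandedness given, reads from stretches that such pairs share cannot be assigned to 1 gene here. The deposited spans of Kcne3, Kcnj15, Kcna6 and Kcnk1 each share a boundary with an overlapping antisense gene.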

Additional observations from a re-analysis of the deposited data

How the results depend on the processing

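No channel gene passed the adjusted threshold in any of the 18 alternatives, and the count at an unadjusted p under 0.05 ran from 4 to 8. With DESeq2, 113 genes of the whole table passed, and leaving out 1 library gave 0 to 2. The number of channel genes whose groups did not overlap was 6 of 40. It was 3 of the 19 with a mean count of at least 100. It was 15 without both replicates 3, and leaving out 1 library gave 8 to 13, where fewer libraries make separation easier. Shares of all genes under these alternatives are not given here. Neither these counts nor those at an unadjusted p under 0.05 are therefore read as results about channel genes. The median log2 fold change of the calcium- and sodium-activated class was 0.38 with a mean count of at least 50. It was 0.38 with voom and quality weights, and -0.034 without both replicates 3. The median of the silent Kv class was 0.38 with a mean count of at least 50. Deviations from the group means correlated at -0.119, 0.0251 and 0.0273 between libraries of the same replicate number. Between libraries of unlike number the correlations ran from -0.223 to 0.221. Deviations from means of 3 libraries constrain one another, so these values cannot decide whether replicate numbers pair the samples. With replicate number as a block, 5 channel genes had an unadjusted p under 0.05, 0 genes passed adjustment, and the log2 fold change of Kcnma1 was 0.0092. Kcnma1 was also at 0.10 with voom and quality weights, and 0.012 on log2 TPM. Without both replicates 3 the log2 fold change was 0.35 for Kcna1, 0.60 for Kcna2, 0.18 for Kcna6, -0.13 for Kcng2 and -0.17 for Kcnn4. Leaving out 1 library at a time gave median log2 fold changes of -0.00088 to 0.15 over all channel genes, 0.078 to 0.49 for the calcium- and sodium-activated class, -0.18 to 0.26 for Kv pores, 0.18 to 0.33 for ancillary Kv subunits and -0.73 to 0.15 for Kir. For single genes it gave -1.47 to 0.34 for Kcna1, -0.95 to 0.64 for Kcna2, -1.004 to 0.32 for Kcna6, -0.14 to 0.037 for Kcnab2, -0.15 to 0.43 for Kcng2, -0.73 to 0.15 for Kcnj2, -0.088 to 0.22 for Kcnj8, -0.24 to 0.081 for Kcnk13, -0.22 to 0.31 for Kcnma1, -0.13 to 0.54 for Kcnn4 and -0.043 to 0.16 for Abcc9. The cause of these shifts was not tested. Of 474 gene values under alternatives, 452 kept their direction and 22, in 11 genes, did not.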

Other observations

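Of 48 channel symbols below the count threshold, 7 passed the low-count filter. Several had most of their counts in 1 library. In vasostatin-2 replicate 3, the Kv pores Kcnc4 and Kcna7 had 30 and 16 counts, against 1 to 4 and 1 to 3 elsewhere. The KATP pore Kcnj11 had 18 there, against 0 to 4. That library also had the highest skeletal muscle sum. In saline replicate 3, which had the highest Schwann cell sum, the inward rectifiers Kcnj10 and Kcnj13 had 41.7 and 16 estimated counts, against 3.49 to 12.1 and 0 to 2 elsewhere. The BK beta subunit Kcnmb4 had 24.3 there, against 0 to 6.32. The silent Kv subunit Kcnv2 had 2, 5 and 7 counts with saline and 10, 13 and 12 with vasostatin-2 (log2 fold change 1.30, adjusted p = 0.681 in edgeR). These genes were singled out after their values were seen. The part of any cell type in their counts was not tested.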
